A study of Rattus norvegicus with 24 samples.

Results

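Prefrontal cortex was set against hippocampus on 8 of the 24 arrays of a rat brain series. The members were chosen by the labels alone: the prefrontal and the hippocampal array of each of 4 strain groups, 4 arrays of each region, which makes 4 within-strain pairs (n = 4). The groups were SDpcb, Sprague-Dawley rats exposed to PCBs (4 rats), SHR, the inbred spontaneously hypertensive rat used as a genetic model of attention deficit hyperactivity disorder (8 rats), WKY, the Wistar-Kyoto rat from which it was derived (8 rats), and SD, Sprague-Dawley rats without the exposure (8 rats). All were males killed between postnatal days 55 and 65, each strain group gave 1 array per region, and neither the PCB dose nor whether RNA of several rats was combined on an array is given in the sources used here. Each array is an Affymetrix RAE 230 2.0 chip that reports 1 signal per probe set in linear MAS5 units. A difference below is the log2 of the prefrontal signal minus that of the hippocampal signal, each after adding 1, as the mean over the 4 pairs ± the standard error of a limma fit with strain group as a block. A gene was called when its adjusted p was under 0.05 over all 15521 probe sets tested, and where 4 signals are listed they stand in the order SD, SDpcb, SHR and WKY.

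The prefrontal cortex is a 6-layered neocortex in which pyramidal neurons of the upper layers connect cortical areas and those of the deep layers project below the cortex, with interneurons that use neuropeptides such as VIP as cotransmitters. The hippocampus has a single main layer of pyramidal cells in its CA fields and a layer of granule cells in the dentate gyrus, where neurons are still born in adult rats. Vip, the gene of vasoactive intestinal peptide, was the marker given for the prefrontal side, and Fibcd1, a receptor for acetylated structures found in CA1 pyramidal cells of mice, that for the hippocampal side. Vip had signals of 1266, 1684, 1604 and 1377 in prefrontal cortex, against 559, 747, 446 and 539 in hippocampus, and the groups did not overlap (log2 1.39 ± 0.17, adjusted p = 0.000299). Fibcd1 had 182, 79.5, 99.8 and 88.5 in prefrontal cortex, against 783, 636, 1764 and 1204 in hippocampus, again without overlap (log2 -3.24 ± 0.29, adjusted p = 3.48e-05). Both markers stood on their given side in each strain group. They were chosen with earlier results of these data known, so their values do not test the labels. Since whole tissue was measured, fewer cells of a type and less RNA per cell cannot be told apart in any result below.

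The WKY prefrontal array stood apart from the other 3 in transcripts of the cerebellum. Gabra6, the GABA-A receptor subunit of cerebellar granule cells, had signals of 47.1, 97.0, 28.8 and 2297 in prefrontal cortex, against 200.5, 18.4, 33.3 and 4.98 in hippocampus. Pcp2, a Purkinje cell gene, had 60.8, 29.4, 76.2 and 668 in prefrontal cortex, against 30.4, 5.44, 80.0 and 47.8 in hippocampus. En2, a homeobox gene of the hindbrain, had 17, 0.85, 13.3 and 324 in prefrontal cortex, against 21.8, 41.3, 13.3 and 48.9 in hippocampus. Only the WKY prefrontal array was high for these 3 genes among the 8. Over the 12 cerebellar markers whose vermis signal was at least 4 times the hippocampal one in every strain group, the median share of the vermis signal was 2.12%, 2.66%, 1.78% and 9.16% in prefrontal cortex, against 2.64%, 3.39%, 4.73% and 2.07% in hippocampus. The summed signal of all 17 cerebellar markers on the array ran from 15452 to 23057 in prefrontal cortex, highest in WKY, against 13506 to 16511 in hippocampus, and the prefrontal signal exceeded the hippocampal one for 15 of the 17 in WKY and for 6, 10 and 8 in SD, SDpcb and SHR. Results below are therefore given with 4 pairs, and calls that changed without WKY are marked by gene or by the count of the list. The median signal of an array was 149, 89.0, 132 and 113 in prefrontal cortex, against 167, 94.8, 166 and 109 in hippocampus, lower in prefrontal cortex in 3 of the 4 pairs.

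**Figure D1:**
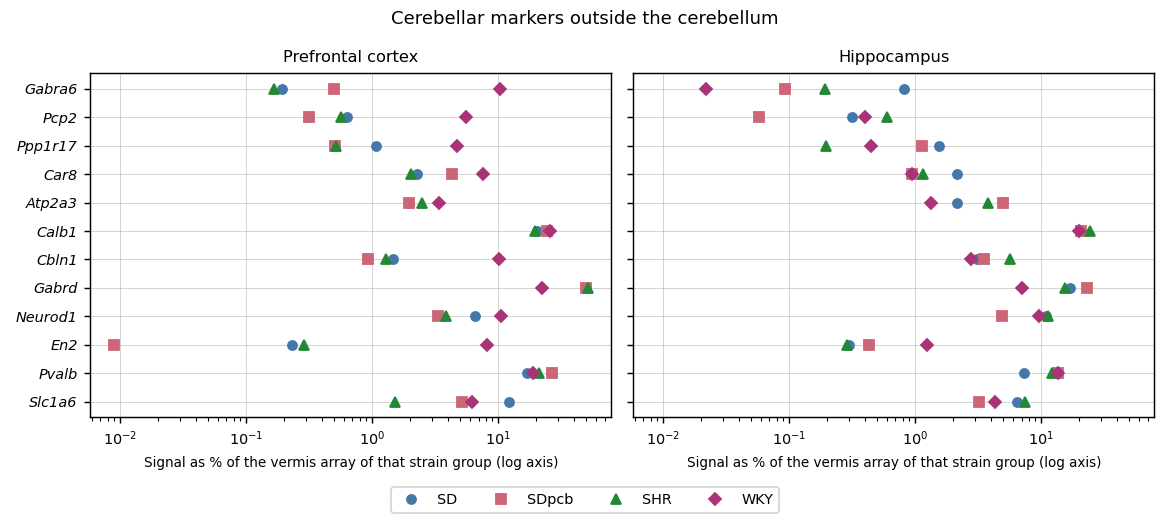
Signals of 12 cerebellar markers on the prefrontal (left) and hippocampal (right) arrays, each as a percent of the vermis array of the same strain group, on a log axis, with 1 symbol per strain group. In prefrontal cortex the WKY symbols for Gabra6, Pcp2, Ppp1r17, Cbln1 and En2 lie to the right of the other 3, and the median over the markers is 9.16% in WKY.

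With 4 pairs, 1096 of 15521 probe sets were called (7.06%), 610 higher and 486 lower in prefrontal cortex, and 439 of them differed by a log2 of at least 1. Without WKY, 560 were called (3.61%), 306 higher and 254 lower, of which 360 differed by a log2 of at least 1. Of these 560, 547 were also called with 4 pairs (97.7% of the smaller set and 49.9% of the larger), all 547 in the same direction. Centring every array on its median added a mean log2 of 0.13 to the differences with 4 pairs and 0.20 without WKY, and moved the split to 812 higher and 297 lower with 4 pairs and to 407 higher and 108 lower without WKY. With each gene represented by its brightest probe set, 346 of 9023 genes were higher (3.83%) and 300 lower (3.32%). Without WKY, 178 were higher (1.97%) and 161 lower (1.78%). These shares over all genes are the background of every list count below. The 4 prefrontal signals lay wholly above or wholly below the 4 hippocampal ones for 622 genes (6.89%).

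**Figure D2:**
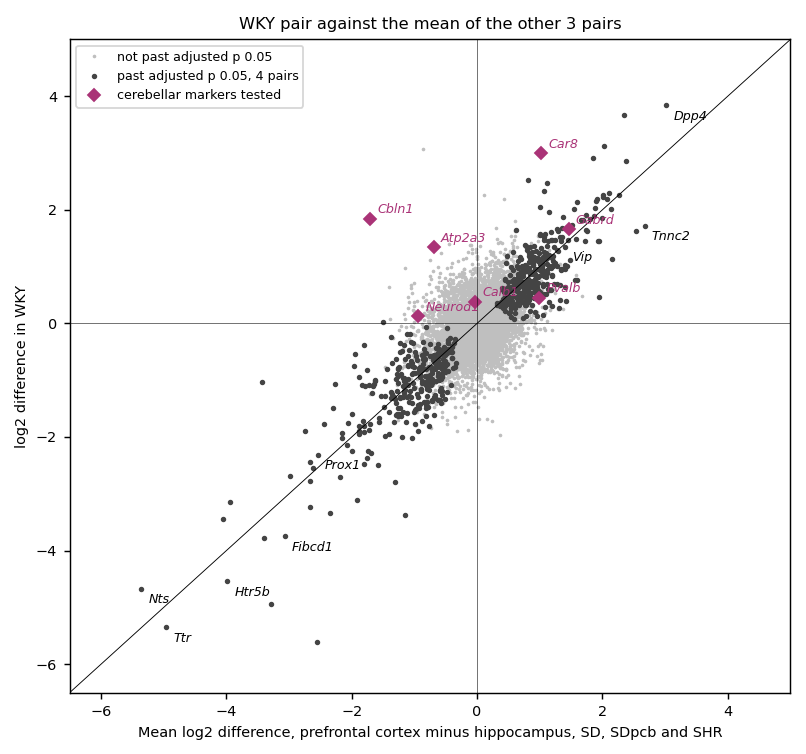
Each point is 1 of 9023 genes: the mean log2 difference, prefrontal cortex minus hippocampus, over the SD, SDpcb and SHR pairs on the horizontal axis and that of the WKY pair on the vertical axis, with the diagonal drawn. Dark points were called with 4 pairs, purple diamonds are cerebellar markers, and Cbln1, Car8 and Atp2a3 lie far above the diagonal while Nts, Ttr and Fibcd1 lie close to it.

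The genes with the widest difference on the prefrontal side included a cell-surface peptidase, a synaptic ligand and signalling proteins. Dpp4, a peptidase that trims peptides at the cell surface, had 271, 439, 469.7 and 335 in prefrontal cortex, against 62.0, 42.5, 37.5 and 22.4 in hippocampus (log2 3.23 ± 0.35, adjusted p = 0.000159). Car10, a carbonic anhydrase-related protein without enzyme activity that binds neurexins, had 2545, 4681, 3622 and 3332 in prefrontal cortex, against 749, 779, 663 and 695 in hippocampus (log2 2.26 ± 0.16, adjusted p = 6.87e-06). In both genes the lowest prefrontal signal was several times the highest hippocampal one. Tnnc2, the calcium-binding troponin C of fast skeletal muscle, had 1678, 1172, 1788 and 871 in prefrontal cortex, against 259, 167, 310.2 and 264 in hippocampus (log2 2.43 ± 0.20, adjusted p = 2.12e-05). Slc22a3, a transporter that takes up monoamines and other organic cations, had 472, 1069.8, 964 and 1148 in prefrontal cortex, against 143, 306, 238 and 152 in hippocampus (log2 2.11 ± 0.22, adjusted p = 0.000112). Its mean signal was higher still in the dorsal striatum. Efna5, the ligand ephrin-A5, had 1255, 1792, 1517 and 1544 in prefrontal cortex, against 508, 441, 235 and 321 in hippocampus (log2 2.07 ± 0.21, adjusted p = 9.17e-05).

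A further gene of the 15 was Hs3st2, a heparan sulfate sulfotransferase (log2 2.31 ± 0.25). Tcerg1l (log2 2.68 ± 0.28) and Tmem196 (log2 2.29 ± 0.24) also belonged to the 15. Olr59, an olfactory receptor gene with many close relatives, had 419, 581, 482 and 601 in prefrontal cortex, against 77.1, 67.6, 158 and 82.4 in hippocampus (log2 2.49 ± 0.27), and cross-hybridisation to a relative was not tested. Cckbr, the main brain receptor of the peptide cholecystokinin, had 235, 373, 321 and 431 in prefrontal cortex, against 199.9, 76.7, 23.0 and 93.7 in hippocampus (log2 2.11 ± 0.44, adjusted p = 0.0101). The hippocampal signals of Cckbr were spread widely, with SD close to the prefrontal range. Cckbr was no longer called without WKY (adjusted p = 0.0607), nor were Plaat1, a phospholipid-metabolising enzyme (log2 2.15 ± 0.44, adjusted p = 0.00986, and 0.0559 without WKY), or Exph5, a Rab27-binding protein (log2 2.10 ± 0.44, adjusted p = 0.0103, and 0.0513 without WKY). The other 12 of the 15 were called without WKY too. Across all 6 regions the mean signal was highest in prefrontal cortex for 11 of the 15. In 14 of the 15 the regions did not overlap, with Egr2 the exception, against 6.89% of all genes without overlap. The kept calls and the lack of overlap are in part set by the choice of the largest differences among called genes. Dpp4, Exph5, Rnd1, Olr59, Cckbr, Hs3st2, Tcerg1l and Plaat1 had mean hippocampal signals of 41.1 (Dpp4) to 103.6 (Plaat1). These are under the filter level near 112.6, so these genes entered the tests through their prefrontal signals. The counts among the 15 are therefore in part set by the filter too.

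On the hippocampal side stood a neuropeptide, a serotonin receptor, the dentate marker Pkp2, the CA marker Fibcd1 and small GTPases. Genes of the choroid plexus and of motile cilia stood there too. Nts, the gene of neurotensin, a peptide that modulates dopamine neurons, had 8.68, 24.5, 80.9 and 53.0 in prefrontal cortex, against 813, 1515, 1128 and 1376 in hippocampus (log2 -5.19 ± 0.37, adjusted p = 6.98e-06). Htr5b, a serotonin receptor gene, had 105, 5.18, 63.7 and 15.8 in prefrontal cortex, against 412, 532, 759 and 389.6 in hippocampus (log2 -4.12 ± 0.55, adjusted p = 0.000531). The lowest of these prefrontal signals are at the dim end of the arrays, and detection calls were not used here. Pkp2, the desmosome protein plakophilin 2, had 81.7, 175, 283 and 113 in prefrontal cortex, against 1300.0, 1391, 2647 and 1549 in hippocampus (log2 -3.49 ± 0.20, adjusted p = 2.05e-06). Rem2, a small GTPase that regulates calcium channels, had 197, 302, 99.0 and 217 in prefrontal cortex, against 1305, 1657, 1357 and 1403 in hippocampus (log2 -2.91 ± 0.22, adjusted p = 1.1e-05). Rerg, a Ras-like GTPase, had 145, 106, 147 and 75.4 in prefrontal cortex, against 777, 611, 647 and 774 in hippocampus (log2 -2.60 ± 0.24, adjusted p = 4e-05). For Pkp2, Rem2 and Rerg the highest prefrontal signal was below the lowest hippocampal one by several fold. In dorsal striatum the mean signal of Rem2 was 4080, against 1431 in hippocampus, and that of Rerg 701, against 702.

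The 15 genes also held Il16, whose product is a cytokine precursor (log2 -2.83 ± 0.43), and Igfbpl1, a gene of immature neurons (log2 -2.69 ± 0.39). C9h6orf141 was lower too (log2 -3.32 ± 0.56). Ttr, Otx2 and Sostdc1, genes of the choroid plexus, are described with that tissue below. Cdhr4, a cadherin-related gene (log2 -3.70 ± 0.43), Ak7, an adenylate kinase of motile cilia (log2 -2.61 ± 0.34), and Tmem212 (log2 -3.75 ± 0.37) completed the 15. All 15 were called without WKY as well, and in none did the regions overlap, against 6.89% of all genes without overlap. Both are in part set by the choice of the largest differences among called genes with 1 sign in all 4 pairs. Nts, Htr5b, Otx2, Tmem212, Cdhr4, C9h6orf141, Il16, Sostdc1, Igfbpl1 and Ak7 had mean prefrontal signals of 41.2 (Tmem212) to 88.1 (Sostdc1). These are under the filter level near 112.6, so these genes entered the tests through their hippocampal signals. Both counts are therefore in part set by the filter too. Across the 6 regions only 6 of the 15, Nts, Htr5b, Pkp2, C9h6orf141, Fibcd1 and Rerg, had their highest mean signal in hippocampus; the vermis was highest for Ttr, Otx2, Il16 and Sostdc1 and the dorsal striatum for the other 5.

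**Figure D3:**
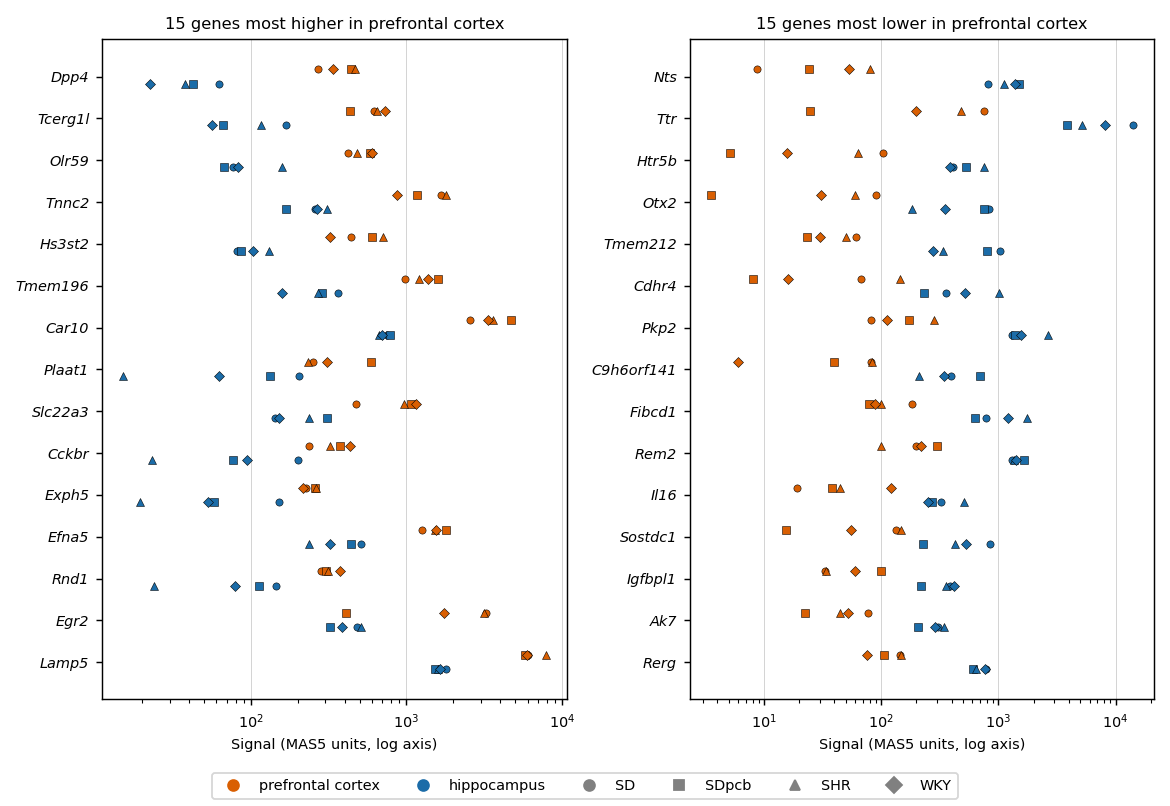
Signals on a log axis of the 15 genes with the largest positive (left) and the 15 with the largest negative (right) difference among called genes with 1 sign in all 4 pairs; orange symbols are prefrontal cortex and blue ones, drawn just below, hippocampus, with 1 shape per strain group. The colours separate fully in every row except Egr2, where the SDpcb prefrontal signal of 408 lies within the hippocampal range.

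Of the genes that mark CA pyramidal cells, 8 of 15 tested were lower in prefrontal cortex and 1 was higher, with a median log2 of -0.91 against -0.01 over all 9023 genes. Besides Fibcd1, the lower ones included Nr3c2, the mineralocorticoid receptor, with 529, 569, 277 and 412 in prefrontal cortex, against 1232, 2532, 1341 and 1601 in hippocampus (log2 -1.90 ± 0.19, adjusted p = 8.34e-05). Homer3, a scaffold of metabotropic glutamate receptors (log2 -1.86 ± 0.29), Bok, a Bcl-2 family member (log2 -1.83 ± 0.19), and the transcription factor Pou3f1 (log2 -1.18 ± 0.21) were lower as well. Mpped1, named after its value was seen, was the higher one (log2 0.46 ± 0.12, adjusted p = 0.0331, and 0.176 without WKY). Without WKY the same 8 genes were lower and Mpped1 was not called.

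Among dentate granule cell markers 3 of 8 were lower and none was higher. Prox1, the transcription factor that maintains granule cell identity, had 1189, 908, 988 and 936 in prefrontal cortex, against 6710.0, 6053, 5196 and 4666 in hippocampus (log2 -2.49 ± 0.13, adjusted p = 1.51e-06). Pkp2 was the second, and Igfbp5, an insulin-like growth factor binding protein, the third (log2 -0.89 ± 0.17, adjusted p = 0.00671). The other 5 lay within a log2 of 0.11 of 0, so the list median was 0.05, against -0.16 without WKY and -0.07 without SHR. Of 9 genes of adult neurogenesis and immature neurons, Igfbpl1 and Calb2 were lower and none was higher, beside 3.83% higher and 3.32% lower over all genes. The mean signal of Igfbpl1 was 543 in dorsal and 532 in ventral striatum, against 345 in hippocampus. That of Calb2 was 2485 in vermis and 2329 in substantia nigra and VTA, against 340 in hippocampus. Calb2, the calcium-binding protein calretinin, which is also an interneuron marker, had 60.5, 174, 96.4 and 227 in prefrontal cortex, against 386, 337, 343 and 295 in hippocampus (log2 -1.45 ± 0.33, adjusted p = 0.0188).

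Cortical layer markers were taken as an upper-layer and a deep-layer list, beside 3.83% higher and 3.32% lower over all genes. Of 7 upper-layer markers tested, 2 were higher and none lower (median log2 0.40), and without SDpcb 2 were higher and 1 lower. Lamp5, a lysosomal membrane protein relative found in upper layers, had 6069, 5818, 7846 and 5921 in prefrontal cortex, against 1790.3, 1516, 1598 and 1635 in hippocampus (log2 1.96 ± 0.13, adjusted p = 3.13e-06). Cux2, a homeobox factor of upper-layer neurons, had 4869, 5834, 4692 and 5127 in prefrontal cortex, against 1639.6, 1717, 1418 and 1450.2 in hippocampus (log2 1.72 ± 0.12, adjusted p = 5.93e-06). Both genes were separated by about the same amount in every strain group. The mean signal of Lamp5 was also high in dorsal and ventral striatum, at 5211 and 4688, against 6414 in prefrontal cortex. Of 12 deep-layer markers, 2 were higher and 3 lower (median log2 -0.09). The deep-layer median was 0.04 with arrays centred on their medians and 0.04 without SDpcb. Rprm, a cell cycle inhibitor of deep layers, was higher (log2 1.44 ± 0.16, adjusted p = 0.000204), as was Ccn2, a matrix protein of the deepest layer (log2 0.69 ± 0.16, adjusted p = 0.0182, and 0.106 without WKY). The lower ones are known from other neurons as well: Bcl11b, a transcription factor of subcortical projection and striatal neurons (log2 -0.99 ± 0.11), Nr4a2, an orphan nuclear receptor (log2 -1.18 ± 0.19), and Htr2c, a serotonin receptor (log2 -1.48 ± 0.21).

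Of 13 transcription factors that pattern the telencephalon, 2 were higher and 4 lower (median log2 -0.37). Without WKY 1 was higher and 3 were lower, and with arrays centred on their medians 3 were higher and 3 lower. Nr2f2, a nuclear receptor of caudal and ventral forebrain, had 467, 305, 298 and 353 in prefrontal cortex, against 1466, 1463, 673 and 1725 in hippocampus (log2 -1.84 ± 0.21, adjusted p = 0.00018). Bhlhe22, a helix-loop-helix factor, had 1492, 2293, 1465 and 2161 in prefrontal cortex, against 4945, 5879.7, 5331 and 4534 in hippocampus (log2 -1.50 ± 0.14, adjusted p = 6.32e-05). Each prefrontal signal lay below every hippocampal one for both genes. Neurod6 (log2 -0.91 ± 0.15) and Emx2 (log2 -0.74 ± 0.15) were lower too, and Emx2 was not called without WKY (adjusted p = 0.0676). Meis2, a homeobox factor, was higher (log2 0.97 ± 0.17, adjusted p = 0.00392). Etv5, an ETS factor named after its value was seen, was the other higher one (log2 0.74 ± 0.19, adjusted p = 0.0359, and 0.249 without WKY).

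Of 14 interneuron markers 5 were higher and 1 lower (median log2 0.56), beside 3.83% higher and 3.32% lower over all genes. The counts were the same without WKY, where Npy took the place of Crh. Besides Vip and Cck, Pvalb, the calcium-binding protein parvalbumin of fast-spiking cells, had 2389, 3855, 3271 and 2628 in prefrontal cortex, against 1032, 1955, 1894 and 1924 in hippocampus (log2 0.86 ± 0.15, adjusted p = 0.00303). Pvalb is also a cerebellar marker, and its difference was as large without WKY (log2 0.99 ± 0.17). Crh, corticotropin-releasing hormone, was higher with 4 pairs (log2 0.93 ± 0.23, adjusted p = 0.03) and not called without WKY (adjusted p = 0.169). Sst, the gene of somatostatin, named after its value was seen, had 2477, 2740.2, 2641 and 1276 in prefrontal cortex, against 1154, 1341, 1308 and 1155 in hippocampus (log2 0.82 ± 0.17, adjusted p = 0.0108). Npy, the neuropeptide Y gene, likewise named, had 967, 1699, 1760.1 and 1015 in prefrontal cortex, against 486, 760.2, 1102 and 1146 in hippocampus, and was called only without WKY (log2 0.94 ± 0.20, adjusted p = 0.0219, against 0.0782 with 4 pairs). Gad1 and Gad2, the enzymes that make GABA in all interneurons, also named after their values were seen, gave log2 0.10 ± 0.10 (adjusted p = 0.648) and log2 -0.05 ± 0.25 (adjusted p = 0.942). The summed signal of the 16 interneuron markers on the array was 19719 to 24982 in prefrontal cortex, against 13360 to 16736 in hippocampus.

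Of 18 neuropeptide and granin genes, 5 were higher and 3 lower. Cck, the gene of cholecystokinin, had 3189.7, 2875, 5342 and 3389 in prefrontal cortex, against 1264, 931, 2209 and 2171 in hippocampus (log2 1.22 ± 0.16, adjusted p = 0.000461), higher by a similar factor in SD, SDpcb and SHR and by less in WKY. Adcyap1, the gene of PACAP, named after its value was seen, was the fifth higher one beside Vip, Cck, Sst and Crh (log2 0.76 ± 0.21, adjusted p = 0.044, and 0.206 without WKY). Lower were Nts, Pdyn and Scg2. Pdyn, the precursor of the dynorphin opioids found in dentate granule cells, had 260.0, 421, 494 and 249.6 in prefrontal cortex, against 1085, 905, 675 and 1006 in hippocampus (log2 -1.40 ± 0.25, adjusted p = 0.00405). Scg2, the granule protein secretogranin II, had 543, 689.9, 565 and 1018 in prefrontal cortex, against 1114, 2359, 1133 and 1890.3 in hippocampus (log2 -1.18 ± 0.18, adjusted p = 0.00132). In both, no prefrontal signal reached a hippocampal one. Of 10 peptide receptors 3 were higher, Cckbr, the somatostatin receptor Sstr1 (log2 1.19 ± 0.22) and the neuropeptide Y receptor Npy1r (log2 0.87 ± 0.17, not called without WKY at adjusted p = 0.0643). Adcyap1r1, the PACAP receptor, was lower (log2 -0.66 ± 0.18, adjusted p = 0.0452, and 0.236 without WKY). Cck, Sst and their receptors Cckbr and Sstr1 had their higher signals on the same side with 4 pairs, and Cckbr was not called without WKY (adjusted p = 0.0607). Adcyap1 and its receptor Adcyap1r1 were on opposite sides. The Vip receptors Vipr1 and Vipr2 were too dim to be tested.

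Peptide genes and immediate early genes are textbook targets of factors that bind the cAMP response element, and their promoters are shown so that this element can be seen beside the values. The windows run from 250 bases before to 50 after the gene start, on the gene's strand, from RefSeq with the GRCr8 build, which is not the annotation of the array. Capitals mark the full element TGACGTCA, its 5-base part TGACG or the reverse complement of that part where the full element is absent, and the serum response element known as the CArG box. Both strands were searched. The full element was found in 1.83% of 33469 promoter windows of this length, the 5-base part, which the full element contains, in 21.2%, and the CArG box in 1.64%. The promoters of 4 peptide genes are shown, Vip and Sst, which were higher in prefrontal cortex, and Nts and Scg2, which were lower, at chr1:44470230-44470529 (plus strand), chr11:90461296-90461595 (plus strand), chr7:39460839-39461138 (minus strand) and chr9:88256817-88257116 (minus strand).
Vip: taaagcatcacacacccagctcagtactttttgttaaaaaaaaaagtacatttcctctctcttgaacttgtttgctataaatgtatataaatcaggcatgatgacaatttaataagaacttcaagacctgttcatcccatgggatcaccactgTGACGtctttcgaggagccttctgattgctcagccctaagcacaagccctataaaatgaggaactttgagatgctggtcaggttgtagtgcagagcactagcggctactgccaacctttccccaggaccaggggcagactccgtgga
Sst: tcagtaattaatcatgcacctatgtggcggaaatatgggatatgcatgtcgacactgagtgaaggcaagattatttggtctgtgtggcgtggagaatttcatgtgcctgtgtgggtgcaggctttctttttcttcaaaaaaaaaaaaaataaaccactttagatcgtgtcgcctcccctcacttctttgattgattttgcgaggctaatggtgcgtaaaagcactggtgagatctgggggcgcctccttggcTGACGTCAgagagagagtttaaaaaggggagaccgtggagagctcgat
Nts: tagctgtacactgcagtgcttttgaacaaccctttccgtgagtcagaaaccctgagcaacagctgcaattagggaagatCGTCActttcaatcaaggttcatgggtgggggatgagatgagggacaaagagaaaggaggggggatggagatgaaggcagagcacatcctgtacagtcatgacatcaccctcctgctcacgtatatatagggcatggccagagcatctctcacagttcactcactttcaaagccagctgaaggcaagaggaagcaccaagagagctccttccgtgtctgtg
Scg2: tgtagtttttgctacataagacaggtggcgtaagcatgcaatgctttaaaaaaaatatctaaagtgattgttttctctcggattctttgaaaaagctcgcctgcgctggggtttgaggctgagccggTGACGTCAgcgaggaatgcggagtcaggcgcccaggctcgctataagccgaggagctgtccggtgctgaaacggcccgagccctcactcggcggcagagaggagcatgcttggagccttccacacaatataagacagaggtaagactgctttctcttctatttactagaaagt
The full element was present in the window of Sst, which was higher in prefrontal cortex, and in that of Scg2, which was lower. Vip held only the 5-base part on the printed strand, and Nts only its reverse complement. Of the 14 listed peptide genes with a window, 4 held the full element, Cartpt, Scg2, Sst and Vgf. A match of letters is a description and not a binding site.

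Immediate early genes, which are transcribed within minutes of neuronal activity, were mostly higher in prefrontal cortex: 6 of 10 tested were higher and 1 lower, with a median log2 of 0.95, against 3.83% higher and 3.32% lower over all genes. Egr2, a zinc finger factor, had 3246, 408, 3137 and 1752 in prefrontal cortex, against 479, 322, 507 and 384 in hippocampus (log2 1.98 ± 0.31, adjusted p = 0.00187). Fos, a subunit of the factor AP-1, had 1364, 421, 1266 and 984 in prefrontal cortex, against 357, 537, 345 and 253 in hippocampus (log2 1.35 ± 0.32, adjusted p = 0.0224). Arc, a synaptic protein whose RNA travels to active dendrites, had 752, 122, 999.6 and 350.1 in prefrontal cortex, against 272, 125, 273 and 148 in hippocampus (log2 1.13 ± 0.28, adjusted p = 0.0282). For each of these 3 genes the SDpcb prefrontal array was the lowest of its region, within the hippocampal range for Egr2 and Fos and just below it for Arc, while the SD, SHR and WKY prefrontal arrays were above every hippocampal one. Nr4a1, an orphan nuclear receptor, had 699.6, 480.4, 383 and 506 in prefrontal cortex, against 255, 380.3, 137 and 216 in hippocampus (log2 1.12 ± 0.23, adjusted p = 0.00908). Dusp1, a phosphatase that switches off MAP kinases, had 6864, 1057, 1271 and 4834 in prefrontal cortex, against 2050.3, 738, 694 and 2668 in hippocampus (log2 1.0 ± 0.18, adjusted p = 0.00467). Dusp1 was higher in prefrontal cortex in all 4 pairs, yet its signals in SD and WKY were high in both regions. Nr4a3, named after its value was seen, was the lower one (log2 -0.52 ± 0.12, adjusted p = 0.0148), and it was not called without WKY (adjusted p = 0.0766). Egr1, a zinc finger factor also named after its value was seen, was the sixth higher one (log2 0.90 ± 0.14, adjusted p = 0.00199, and 0.0153 without WKY).

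The pair difference in Fos was 1.93, -0.35, 1.87 and 1.96 in SD, SDpcb, SHR and WKY, and that in Arc 1.46, -0.03, 1.87 and 1.23. In Egr2 it was 2.76, 0.34, 2.63 and 2.19. Without the SDpcb pair 7 of the 10 immediate early genes were higher and 1 lower, and the list median was 1.21. With arrays centred on their medians 6 were higher and none lower. Without WKY 3 were higher and none lower (median 0.97), and without SD 3 were higher and 1 lower. Fos and Arc were not called without WKY (adjusted p = 0.14 and 0.123), nor was Nr4a1 (0.0622). The handling of the animals and the time from death to freezing are not given in the sources used here.

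The promoters of Egr2, at chr20:21054392-21054691 (minus strand), and Dusp1, at chr10:17184603-17184902 (plus strand), are shown with the same capitals, since these genes kept their calls without WKY, as Egr1 did.
Egr2: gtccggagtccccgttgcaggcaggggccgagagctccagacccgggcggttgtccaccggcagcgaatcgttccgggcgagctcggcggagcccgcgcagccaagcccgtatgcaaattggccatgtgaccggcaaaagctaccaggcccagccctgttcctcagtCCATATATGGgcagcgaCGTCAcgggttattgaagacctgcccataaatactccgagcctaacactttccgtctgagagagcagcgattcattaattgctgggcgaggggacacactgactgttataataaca
Dusp1: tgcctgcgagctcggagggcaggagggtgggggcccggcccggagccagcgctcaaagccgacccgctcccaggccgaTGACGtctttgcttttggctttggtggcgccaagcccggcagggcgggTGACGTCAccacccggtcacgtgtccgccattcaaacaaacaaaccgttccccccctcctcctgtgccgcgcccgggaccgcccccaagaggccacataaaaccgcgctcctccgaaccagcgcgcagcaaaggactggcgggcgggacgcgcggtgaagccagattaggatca
Egr2 held a CArG box and, further on, the reverse complement of the 5-base part. Dusp1 held the 5-base part and then the full element. Of 11 immediate early genes with a window, 3 held the full element (Btg2, Dusp1 and Ier2) and 2 the CArG box.

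**Figure D4:**
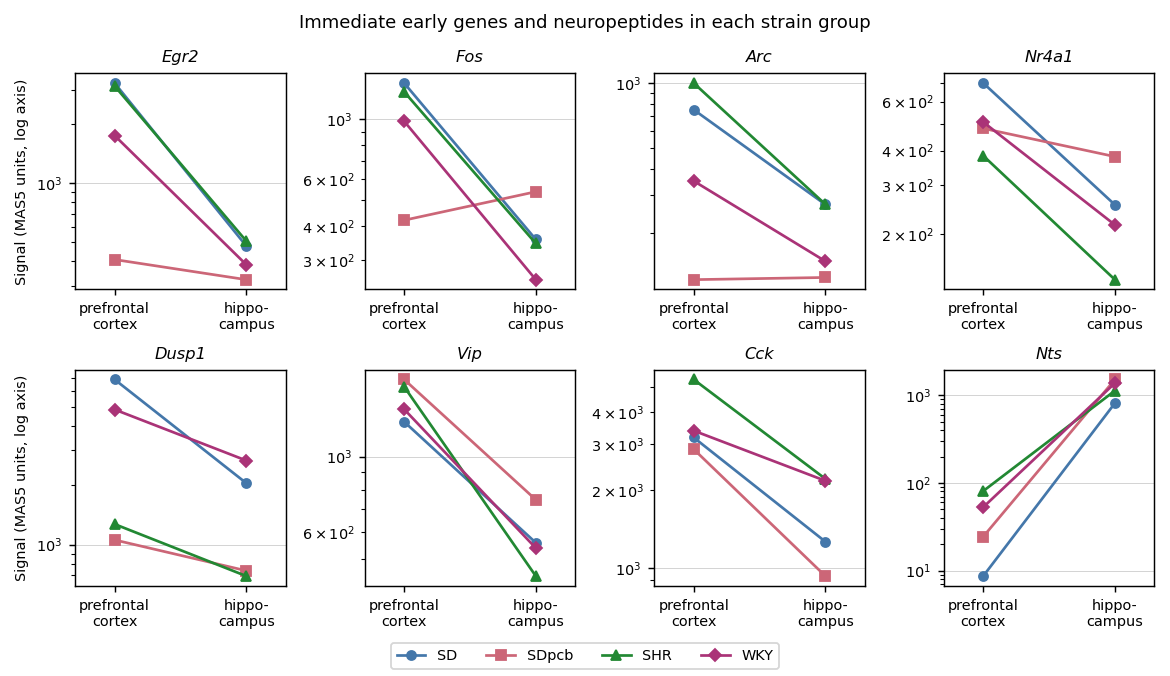
Signals of 5 immediate early genes and 3 neuropeptide genes, prefrontal cortex at the left and hippocampus at the right of each panel, on a log axis, with 1 line per strain group. The SDpcb line is flat or nearly so for Egr2, Fos and Arc and slopes like the others for Vip, Cck and Nts.

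Serotonin receptors divided between the regions, and all 3 that were bright enough to test were called, with and without WKY. Htr2a, the receptor through which classical hallucinogens act, had 544, 446, 205 and 245 in prefrontal cortex, against 128, 113, 126 and 86.5 in hippocampus (log2 1.56 ± 0.28, adjusted p = 0.0043). Htr2c had 238, 305, 242 and 384 in prefrontal cortex, against 1075, 596, 600.3 and 1070.2 in hippocampus (log2 -1.48 ± 0.21, adjusted p = 0.000913), and Htr5b is given above. The groups did not overlap for any of the 3, and the other 10 on the array were too dim to be tested. Htr5b passed the brightness filter, near a signal of 112.6, only through its hippocampal signals. Of 4 dopamine and noradrenaline receptors tested none was called, and 1 had an unadjusted p under 0.05. Drd1, the D1 dopamine receptor, had 394, 179, 218 and 395 in prefrontal cortex, against 485, 708, 455 and 287 in hippocampus (log2 -0.72 ± 0.31, adjusted p = 0.225). Adra2a, the alpha-2A noradrenaline receptor, had 397, 472, 375 and 295 in prefrontal cortex, against 364, 171, 353 and 303 in hippocampus (log2 0.41 ± 0.26, adjusted p = 0.432). Of 10 candidate genes for the disorder tested, Htr2a was the 1 called, beside 3.83% higher and 3.32% lower over all genes.

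GABA receptor subunits split evenly, 2 higher and 2 lower of 8, with and without WKY. Gabrd, the delta subunit of extrasynaptic receptors, had 668, 725, 973 and 472 in prefrontal cortex, against 228, 339.8, 291 and 148 in hippocampus (log2 1.51 ± 0.19, adjusted p = 0.000403). Gabrd is also high in cerebellar granule cells, and its difference without WKY was log2 1.46 ± 0.23. Gabrb2, the beta2 subunit, was higher (log2 0.68 ± 0.11, adjusted p = 0.00219). Gabra5, the alpha5 subunit long known as enriched in hippocampus, had 1425, 1046, 1155 and 1760.0 in prefrontal cortex, against 2335, 2707, 1781 and 3007 in hippocampus (log2 -0.87 ± 0.15, adjusted p = 0.00388). Gabra2 was lower as well (log2 -0.65 ± 0.14, adjusted p = 0.0107). With arrays centred on their medians 1 of the 8 was lower in place of 2.

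Among glutamate receptor genes, AMPA and kainate subunits and their auxiliary proteins had 2 higher and 2 lower of 10. Gria1, the GluA1 subunit, had 1089, 1309.7, 797 and 1035 in prefrontal cortex, against 1935, 2486, 2614 and 2107 in hippocampus (log2 -1.12 ± 0.17, adjusted p = 0.00121). Cacng3, an auxiliary subunit that carries AMPA receptors to synapses, had 1657, 2385, 1851 and 1696 in prefrontal cortex, against 639, 1019.7, 794 and 845 in hippocampus (log2 1.21 ± 0.15, adjusted p = 0.000291). The regions did not overlap in either gene. Its relative Cacng2 was higher (log2 0.76 ± 0.19) and the auxiliary protein Cnih2 lower (log2 -0.99 ± 0.21), and neither was called without WKY (adjusted p = 0.0792 and 0.0985). None of 5 NMDA receptor genes was called, and 1 had an unadjusted p under 0.05; Grin1, the obligate subunit, gave log2 0.50 ± 0.18 (adjusted p = 0.139). Homer1, a postsynaptic scaffold, was higher (log2 0.69 ± 0.10, adjusted p = 0.00145), the opposite side from Homer3. The size depended on the probe set: 3 others of Homer1 gave log2 differences of 1.41, 1.17 and 2.05 (adjusted p = 7.78e-05, 0.101 and 0.00137). Slc17a6, the vesicular glutamate transporter of thalamus and midbrain, was lower (log2 -0.96 ± 0.21, adjusted p = 0.0137). Its hippocampal signals were 824, 1850, 584 and 915, highest in SDpcb, and its difference without SDpcb was log2 -0.70. The summed signal of 12 thalamic and midbrain markers was 7385, 14970, 4986 and 7139 in hippocampus, against 5287 to 6380 in prefrontal cortex. Their list median was -0.32, against 0.02 without SDpcb. A share of such tissue in the SDpcb hippocampal array was not tested.

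Calmodulin-linked and plasticity genes had 4 higher and 1 lower of 18, beside 3.83% higher and 3.32% lower over all genes. Nrgn, the calmodulin-binding protein neurogranin, had 4417, 5314, 7226 and 4467 in prefrontal cortex, against 2076, 2411, 4562 and 4099 in hippocampus (log2 0.75 ± 0.16, adjusted p = 0.00992). Camk1g, a CaM kinase, was higher with 4 pairs (log2 0.96 ± 0.22, adjusted p = 0.0188, and 0.0725 without WKY). Rgs14, an RGS protein known for restraining plasticity in CA2 of mice, had 586, 695, 748 and 984 in prefrontal cortex, against 1089.9, 1751, 1874 and 2113 in hippocampus (log2 -1.16 ± 0.15, adjusted p = 0.000507). RGS proteins, which speed the shut-off of G proteins, had 2 higher and 2 lower of 9. Rgs4 had 7738, 9322, 7921 and 7040.0 in prefrontal cortex, against 3545, 4960.4, 2525 and 2776 in hippocampus (log2 1.26 ± 0.12, adjusted p = 7.78e-05), so Rgs4 and Rgs14 lay on opposite sides without overlap. Rgs2 was higher (log2 0.68 ± 0.16) and Rgs10 lower (log2 -0.57 ± 0.13), and neither was called without WKY (adjusted p = 0.0782 and 0.125). Stx1a, the SNARE protein syntaxin 1A, was higher (log2 1.57 ± 0.21, adjusted p = 0.000669). It was the 1 called of 16 synaptic vesicle genes, a share near that over all genes (3.83% higher and 3.32% lower).

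Voltage-gated potassium channel genes had 4 higher and 3 lower of 19, 1 in each direction without WKY, and 5 higher and 1 lower with arrays centred on their medians. Kcnv1, a silent subunit that modifies other channels, had 592, 881, 400.0 and 616 in prefrontal cortex, against 318, 269.8, 241 and 239.6 in hippocampus (log2 1.17 ± 0.21, adjusted p = 0.00403). Kcnab1, a beta subunit that speeds inactivation, was lower (log2 -0.79 ± 0.15, adjusted p = 0.00652). Kcnh1 (log2 0.93 ± 0.22) and Kcna2 (log2 0.73 ± 0.18) were higher and Kcna4 lower (log2 -0.55 ± 0.14), without a call in any of the 3 when WKY was left out. Of 13 sodium, calcium and HCN channel genes 3 were higher and 2 lower, and without WKY 2 were higher and 1 lower. The calcium channel subunits Cacna2d1 (log2 0.62 ± 0.16) and Cacnb2 (log2 -0.63 ± 0.16) lost their calls (adjusted p = 0.145 and 0.154 without WKY). Scn3b, a beta subunit of sodium channels, had 999, 1123, 894 and 1249 in prefrontal cortex, against 2087, 2736, 3101 and 2879 in hippocampus (log2 -1.34 ± 0.15, adjusted p = 0.000202). Scn4b, another beta subunit, had 1516, 3090.0, 1433 and 1014 in prefrontal cortex, against 592, 1757, 539 and 559 in hippocampus (log2 1.11 ± 0.16, adjusted p = 0.00118). These 2 sodium channel beta subunits stood on opposite sides, and Scn4b overlapped only through the hippocampal array of SDpcb. Scn1a, a pore-forming subunit of interneurons, was higher (log2 0.69 ± 0.17, adjusted p = 0.0231).

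Of 13 semaphorin, plexin, netrin and Slit pathway genes, 3 were lower and none higher (median log2 -0.45). Nrp2, the receptor of class 3 semaphorins neuropilin 2, had 239, 326, 329 and 631 in prefrontal cortex, against 1429, 1403, 2078 and 2156 in hippocampus (log2 -2.28 ± 0.18, adjusted p = 1.91e-05). Nrp1, its relative, had 615, 639, 727 and 1056 in prefrontal cortex, against 2081, 2087, 1411 and 2570.5 in hippocampus (log2 -1.43 ± 0.17, adjusted p = 0.000256). Both neuropilins were lower in every pair, and WKY had the highest prefrontal signal of each. Sema5a was lower with 4 pairs (log2 -0.68 ± 0.15, adjusted p = 0.017, and 0.0979 without WKY). Of 10 ephrins and Eph receptors 2 were higher and 2 lower, with and without WKY: the ligand Efna5 and the kinase-dead receptor Ephb6 (log2 1.07 ± 0.21) against the ligand Efnb3 (log2 -1.35 ± 0.18) and the receptor Epha6 (log2 -1.47 ± 0.28). Cadherins and other adhesion genes had 4 higher and 1 lower of 17, beside 3.83% higher and 3.32% lower over all genes. Cdh6 (log2 1.13 ± 0.28) and Cdh12 (log2 1.01 ± 0.26), classical cadherins of subsets of neurons, were higher, and Pcdh19, a protocadherin, was lower (log2 -1.02 ± 0.22, adjusted p = 0.0136). Flrt2, a guidance and adhesion protein, was higher with and without WKY (log2 0.71 ± 0.14, adjusted p = 0.0091), while Cdh6, Cdh12 and Pcdh10 (log2 0.81 ± 0.19) lost their calls without WKY.

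Among growth factors, Ntf3, the neurotrophin NT-3 made by dentate granule cells, had 157, 89.5, 78.3 and 124 in prefrontal cortex, against 429, 396, 594 and 476 in hippocampus (log2 -2.11 ± 0.26, adjusted p = 0.00039). Inhba, the activin A subunit, had 3928, 3276, 2796 and 2927 in prefrontal cortex, against 1734, 2154, 1287 and 1506 in hippocampus (log2 0.97 ± 0.14, adjusted p = 0.000913). The regions were apart in both genes, in opposite directions, and Fgf13 was the third called of 11 (log2 -0.40 ± 0.11, adjusted p = 0.04, and 0.166 without WKY). Of 8 corticosteroid receptor and response genes 2 were lower, beside 3.32% lower over all genes. Nr3c2 is given above; Sgk1, a kinase induced by corticosteroids, was the other (log2 -0.55 ± 0.11, adjusted p = 0.00968, and 0.0736 without WKY). Of 14 cytoskeleton genes 3 were higher, Tnnc2, Mlip (log2 0.91 ± 0.15) and Gap43, a growth cone protein (log2 0.32 ± 0.08, adjusted p = 0.0373, and 0.169 without WKY). Over all genes 3.83% were higher.

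Glial and vascular markers differed between the regions as well. Of 15 oligodendrocyte and myelin genes 10 were lower and none higher, with a median log2 of -0.58. Mal, a myelin membrane protein, had 1849, 709, 2736 and 1069 in prefrontal cortex, against 3188, 2672, 3716 and 2623 in hippocampus (log2 -1.11 ± 0.20, adjusted p = 0.00443). Ugt8, the enzyme that makes the myelin lipid galactosylceramide, had 404, 293, 389.8 and 297 in prefrontal cortex, against 802, 1533, 491 and 729 in hippocampus (log2 -1.25 ± 0.27, adjusted p = 0.0122). Ermn (log2 -0.88 ± 0.15), Opalin (log2 -1.06 ± 0.25) and Mog (log2 -0.88 ± 0.22), all of mature oligodendrocytes, were lower too. The prefrontal SHR array was the highest of its region for Mal, Ermn, Opalin and Mog, and SD for Ugt8. Without WKY only 2 of the 15 were called, Mal and Ermn, at a list median of -0.47, and with arrays centred on their medians 4 were. The summed signal of 17 such markers was 39186 to 62667 in prefrontal cortex, against 59787 to 85504 in hippocampus, and within each pair the prefrontal sum was lower.

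Gfap, the intermediate filament of astrocytes, had 1172, 1282, 2307 and 1479.8 in prefrontal cortex, against 3399, 3194, 5410.5 and 3523 in hippocampus (log2 -1.33 ± 0.13, adjusted p = 5.63e-05). Agt, angiotensinogen, was the other lower one of 14 astrocyte markers (log2 -0.86 ± 0.17, adjusted p = 0.00837, and 0.0717 without WKY), and the list median was -0.16. Over all genes 3.83% were higher and 3.32% lower, which is the background for the 3 lists of this paragraph with called genes. Of 9 endothelial and pericyte markers 2 were higher: Abcb1a, a drug efflux pump of the blood-brain barrier (log2 0.93 ± 0.17, adjusted p = 0.00484), and Slco1a4, an organic anion transporter (log2 0.59 ± 0.16, adjusted p = 0.0454, and 0.167 without WKY). Abcb1a signals were 626, 2219, 1284 and 479 in prefrontal cortex, against 372, 933, 796 and 233 in hippocampus, highest in SDpcb in both regions. Igf2, made by meninges and choroid plexus, was lower (log2 -0.70 ± 0.19, adjusted p = 0.0451, and 0.199 without WKY), the 1 gene called of 10 meningeal and fibroblast markers, whose median was 0.14. The summed signal of the 12 such markers on the array was 11355, 11474, 12061 and 3708 in prefrontal cortex, against 9099, 6722, 11531 and 4854 in hippocampus, so the sum was above the hippocampal one in every pair except WKY. None of 7 microglia markers was called or had an unadjusted p under 0.05; Aif1 gave log2 0.30 ± 0.18 (adjusted p = 0.424).

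Choroid plexus genes had the lowest median of the 47 lists, with a median log2 of -1.87 and 4 of 6 lower, with and without WKY. Ttr, the gene of transthyretin, which carries thyroid hormone in cerebrospinal fluid, had 761, 24.6, 480.1 and 197 in prefrontal cortex, against 14168, 3876, 5201 and 8085 in hippocampus (log2 -5.06 ± 0.43, adjusted p = 2.12e-05). Otx2, a homeobox factor of the plexus, had 90.9, 3.52, 59.6 and 30.8 in prefrontal cortex, against 826, 757, 182 and 348 in hippocampus (log2 -3.90 ± 0.67, adjusted p = 0.00341). Sostdc1, a secreted BMP and Wnt antagonist, had 135, 15.4, 146 and 55.5 in prefrontal cortex, against 846, 226, 429 and 531 in hippocampus (log2 -2.80 ± 0.34, adjusted p = 0.000304). In all 3 the SDpcb prefrontal array had the lowest signal. The mean prefrontal signals of Otx2 and Sostdc1 were 46.2 and 88.1, under the filter level near 112.6. Both genes passed the brightness filter only through their hippocampal signals, so the count of 4 of 6 is in part set by the filter. Enpp2, the enzyme autotaxin, which oligodendrocytes make too, was lower (log2 -0.94 ± 0.18, adjusted p = 0.00631). The summed signal of 11 plexus markers was 2022 to 5554 in prefrontal cortex, against 9932 to 25065 in hippocampus. The part of the plexus in the differences of other genes made there, Htr2c among them, was not tested.

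**Figure D5:**
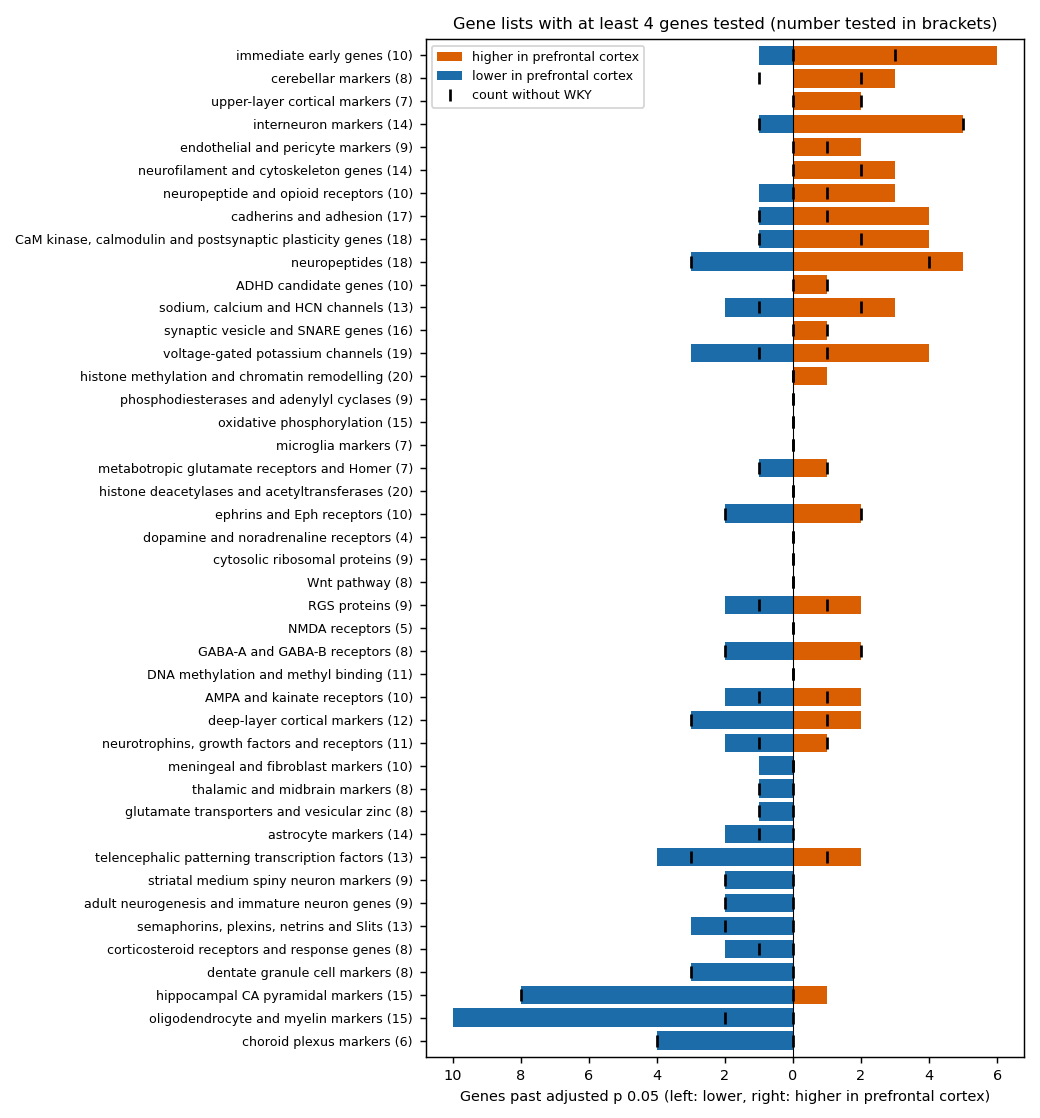
Number of genes called higher (orange, to the right) and lower (blue, to the left) in prefrontal cortex for each list with at least 4 genes tested, whose number tested stands in brackets; black ticks give the counts without WKY. The 10 lower oligodendrocyte genes shrink to 2 without WKY, while the 8 lower CA pyramidal markers stay at 8.

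In several lists few or no genes were called with limma. None of 20 histone deacetylases and acetyltransferases was called (5 had an unadjusted p under 0.05), none of 11 DNA methylation genes (2), and 1 of 20 histone methylation and chromatin remodelling genes. That one was Kmt2a, a histone methyltransferase, with 822, 384, 707 and 773 in prefrontal cortex, against 345, 277, 545 and 479 in hippocampus (log2 0.70 ± 0.19, adjusted p = 0.0496, and 0.183 without WKY). The histone deacetylase Hdac3 had 446, 629.6, 598 and 679 in prefrontal cortex, against 305, 473, 389.6 and 409 in hippocampus (log2 0.58 ± 0.17, adjusted p = 0.0694). The prefrontal signal of Hdac3 was above the hippocampal one within each pair, without a call. None was called of 8 Wnt pathway genes (2 under 0.05), 9 phosphodiesterases and adenylyl cyclases (1), 15 oxidative phosphorylation genes (1) or 9 cytosolic ribosomal protein genes (1). Sfrp2, a secreted Wnt inhibitor, gave log2 -1.02 ± 0.31 (adjusted p = 0.0698). A missed threshold with 4 pairs does not show that these genes were alike in the regions.

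The size of the difference varied between strain groups for some bright genes. The 8 genes with the widest range of pair differences among the brightest 25% of genes were Cited2, Klf6, Tmem87b, Phf21a, Txnip, Kat2b, Herc3 and Morf4l2, and none of them was called by its brightest probe set. Another probe set of Klf6 was past the threshold (log2 0.50, adjusted p = 0.0443), and another of Tmem87b had the opposite sign (log2 0.29 against -0.26). Cited2, a transcriptional coregulator, had 1977, 1056, 1904 and 2425 in prefrontal cortex, against 1974, 3444, 915 and 2472 in hippocampus, so that its pair differences were 0.00, -1.70, 1.06 and -0.03. Klf6, a zinc finger factor, had 3419, 1527, 2556 and 4127 in prefrontal cortex, against 2082, 2727, 713 and 2783 in hippocampus, with pair differences of 0.72, -0.84, 1.84 and 0.57. Txnip, a thioredoxin inhibitor, had pair differences of -0.13, -1.59, 0.85 and -0.60. Kat2b, a histone acetyltransferase, had -0.19, -1.57, 0.72 and -0.65. In all 8 the SDpcb difference was below 0 and the SHR difference above it, and the hippocampal array was the highest of its region in SDpcb or WKY and the lowest in SHR. With 1 array per strain group and region these values have no replicate, and strain group, exposure and array cannot be told apart.

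Leaving out WKY also changed which genes stood at the edges. Car8, a Purkinje cell gene, had 228, 336, 189.9 and 901 in prefrontal cortex, against 219.7, 73.1, 107 and 112 in hippocampus, and was called with 4 pairs (log2 1.51 ± 0.40, adjusted p = 0.0359) and not without WKY (log2 1.02 ± 0.41, adjusted p = 0.245). Cbln1, a synapse organiser of cerebellar granule cells, had 149, 98.2, 109.8 and 911 in prefrontal cortex, against 317, 374, 486 and 253 in hippocampus. Cbln1 was not called with 4 pairs (log2 -0.82 ± 0.49, adjusted p = 0.404) and was lower without WKY (log2 -1.71 ± 0.31, adjusted p = 0.0104). Atp2a3, a calcium pump of Purkinje cells, gave log2 -0.18 ± 0.34 with 4 pairs and log2 -0.69 ± 0.29 without WKY, Neurod1, a granule cell transcription factor, log2 -0.67 ± 0.29 and log2 -0.94 ± 0.34. Calb1 (log2 0.07 ± 0.12) and Itpr1 (log2 0.23 ± 0.10), bright in many neurons, were not called. Among 81 probe sets tested with mean vermis signals over SD, SDpcb and SHR at least 4 times those of both regions, 8 were called higher and 6 lower with 4 pairs, and 3 higher and 8 lower without WKY. The median pair difference over these 81 was -0.05, -0.14, -0.17 and 0.39.

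In the fit without WKY, the largest differences beyond the genes already listed were those of Plcb4, Nupr1, Garnl3, Cbln2 and Rassf5 on the prefrontal side and Vav3, Lpl, Prox1, Nrp2 and Mas1 on the hippocampal side. Cbln2, a synapse organiser of the cerebellin family, had 7931, 8000.5, 8474 and 7493 in prefrontal cortex, against 2641, 2241, 1651 and 2728 in hippocampus (log2 1.93 ± 0.16 without WKY, adjusted p = 0.00012). Lpl, lipoprotein lipase, had 237, 444, 325 and 440.0 in prefrontal cortex, against 1525, 2691, 1916 and 2564 in hippocampus (log2 -2.61 ± 0.20 without WKY, adjusted p = 7.65e-05). Mas1, a receptor of the angiotensin system, had 60.5, 72.0, 141 and 136 in prefrontal cortex, against 416, 395, 460.4 and 387 in hippocampus (log2 -2.30 ± 0.33 without WKY, adjusted p = 0.00269). The regions did not overlap in these 3 genes. Plcb4, a phospholipase C, had 839, 1494, 1343 and 767 in prefrontal cortex, against 285, 612, 109 and 348 in hippocampus (log2 2.15 ± 0.37 without WKY, adjusted p = 0.00725), with the low SHR hippocampal signal setting the widest pair. Vav3 (log2 -2.75 ± 0.25), Garnl3 (log2 1.94 ± 0.21), Rassf5, a Ras effector (log2 1.89 ± 0.38), and Nupr1, a stress-induced protein (log2 1.95 ± 0.39), were called as well, both without WKY and with 4 pairs.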

How the data were processed

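RNA of 6 brain regions was hybridised to Affymetrix RAE 230 2.0 arrays, after RNeasy extraction and Ovation amplification per the labels' protocols. The deposited intensity values are linear MAS5 signals, per the submitters' processing notes (the version is not given in the sources used here). The 2% trimmed mean of every array was between 500.15 and 500.19, so arrays had already been scaled.

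The 8 prefrontal and hippocampal arrays were taken as log2(signal + 1). After removal of 57 control probe sets, the brighter 50% of the other 31042 by mean log2 signal entered the tests (15521, from a signal near 112.6 upward). The mean was over both regions, so a gene dim in 1 region could enter through the other alone. Limma 3.58.1 (R 4.3.3) fitted region with strain group as a block, with a variance trend (3 residual degrees of freedom, 9.61 prior), and p-values were adjusted by the Benjamini-Hochberg method over all of them. A gene was its brightest probe set with 1 symbol. Strain group pairs the arrays: deviations from the region means of same-strain arrays correlated at 0.484, 0.538, 0.529 and 0.511. With 4 pairs a two-sided exact sign-flip test cannot go below p = 0.125. The p-value of each gene therefore rests on limma's variance, which draws on all probe sets tested. Nothing in the sources used here says whether arrays are of separate animals or of pools, so p-values measure the spread between these arrays.

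In simulated data of 15521 probe sets with 4 pairs, 30 of 100 probe sets changed by a log2 of 1 and 79 of 100 changed by a log2 of 2 were called, with 2 false calls. Without WKY these were 7 and 46 of 100, with 1 false call. The simulated noise was drawn independently for each probe set and array, without shifts shared across an array. The false calls therefore cannot stand for those of the real fit. The number of arrays limits the precision.

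Named genes were the 15 largest differences each way among called genes with 1 sign in all 4 pairs, Vip and Fibcd1, up to 5 called genes per list by size (or, where none was called, the smallest p-values), the cerebellar markers, the 8 bright genes with the widest range of pair differences, and the 5 largest each way without WKY not listed before. The comparison, the gene lists and the markers were chosen with earlier results of these data known. Alternatives changed the arrays in the fit, the normalization, the pseudocount, the filter, the variance prior, array weights, the pairing, the threshold and the probe set of a gene.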

Additional observations from a re-analysis of the deposited data

Results flagged for a closer look

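In 173 groups of 4 pair differences, 1 group for each named gene, the most extreme pair was set against the other 3 with Dixon's test at its 95% critical value, which chance passes in about 1 in 20 groups. In 6 of the 173 genes 1 pair stood far from the others, a smaller share than the 1 in 20 of chance. They are therefore given as values only. Fos had a difference of -0.35 in SDpcb, against 1.87 to 1.96 in the other pairs. Scg2 had -1.77 in SDpcb, against -1.03 to -0.89 in the others. Adcyap1r1 had 0.0081 in SDpcb, against -0.95 to -0.81. Adra2a had 1.46 in SDpcb, against -0.04 to 0.13. The SDpcb pair was the distant one in these 4 genes. Agt had -0.37 in SD, against -1.05 to -0.98 in the others, and Plcb4 had 3.61 in SHR, against 1.14 to 1.55. Each rests on 1 array per region.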

How the results depend on the processing

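Of the 127 named genes called with 4 pairs, none changed direction under any alternative run. Other probe sets were tested for 12 of them, 15 probe sets in all, each with the same sign. For Gabrd, Nr4a2, Ermn, Homer1, Cacnb2, Rgs2 and Kmt2a, 1 of these was not called. Calls were lost by 63 without the replicate block, the most of any alternative, by 34 without SD, 16 without SDpcb, 11 without SHR and 36 without WKY, by 37 with all 6 regions in the fit, 45 without a variance trend, 11 with median centring, 9 without a filter and 4 with quantile normalization. The count of 1096 probe sets ranged from 560 to 1084 when a pair was left out (560 without WKY and 609 without SD), and was 566 without a trend and 710 with 1 probe set per gene. That of 439 with a log2 difference of at least 1 ranged from 360 to 503, and was 190 in the upper 25% by mean and 278 with 1 probe set per gene. Without WKY, the 560 probe sets ranged from 280 (without SD) to 866 (without SHR), and were 76 without a trend, 911 with array weights, 368 with 1 probe set per gene and 860 at an adjusted p of 0.1. The 360 with a log2 difference of at least 1 ranged from 267 to 593, and were 196 in the upper 25%, 76 without a trend and 234 with 1 probe set per gene. The 646 genes ranged from 339 to 628 and were 326 without a trend; the 339 without WKY ranged from 172 to 493, and were 47 without a trend and 537 with array weights. Without the replicate block, which ignores the pairing by strain group, the counts were 279 and 226 with 4 pairs and 58 and 58 without WKY for probe sets, and 179 and 36 for genes. The causes were not tested. Of 329 list medians recomputed, 32 changed sign.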

Other observations

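Genes of motile cilia, which ependymal cells of the ventricle wall carry, were gathered after Tmem212, Cdhr4 and Ak7 had been seen among the largest differences, so their values are a description. Of 13 on the array 6 were bright enough to be tested. Tmem212 had 60.9, 23.4, 50 and 30.3 in prefrontal cortex, against 1029, 805, 340.3 and 277 in hippocampus. Cdhr4 had 67.7, 8.01, 144 and 16.1 in prefrontal cortex, against 356, 230.1, 1011 and 525 in hippocampus. Dynlrb2, a dynein light chain, had 76.1, 41.9, 164 and 49.7 in prefrontal cortex, against 350.2, 240.0, 341 and 436 in hippocampus. In these 3 genes every prefrontal signal lay below every hippocampal one. Of the 6 tested, 5 were lower in prefrontal cortex, with 4 pairs and without WKY, and 3 of these 5 are the genes that prompted the list. The mean prefrontal signals of Tmem212, Cdhr4, Ak7, Dynlrb2 and Cfap144, the 5 lower ones, were 41.2, 58.9, 49.2, 82.8 and 87.0. All are under the filter level near 112.6, so these genes entered the tests through their hippocampal signals. The count of 5 of 6 is therefore in part set by the filter. Ccdc113, the remaining one, had 113, 135, 195 and 91.0 in prefrontal cortex, against 196, 133, 203 and 139 in hippocampus, overlapped and was not called (log2 -0.36 ± 0.29, adjusted p = 0.566 with limma).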
